A study of Mus musculus with 6 samples.

Results

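The Slc25a genes encode carriers of the mitochondrial inner membrane and a few related proteins. All protein-coding genes of the deposited count table whose GENCODE symbol is Slc25a followed by digits were taken, which gave 47 genes of the 54532 in the table. Of these 47, 39 had enough counts to be tested, among 14715 tested genes. The study sequenced RNA of quadriceps muscle from mouse pups at postnatal day 10, with 3 libraries from Pcyt2 flox/flox controls and 3 from Myf5Cre-Pcyt2 flox/flox pups, written Myf5Cre-Pcyt2 here. Both groups carry the floxed Pcyt2 allele, which encodes an enzyme of phosphatidylethanolamine synthesis. The labels do not say that the controls carry Cre, so Cre itself and the loss of Pcyt2 cannot be told apart by this comparison. Cre driven from Myf5 acts in muscle precursor cells, and the tissue was whole muscle, which also holds connective tissue, vessels, nerve and blood. In bulk tissue, fewer cells of a type and less RNA per cell cannot be told apart. Pups of both groups were on a chow diet under the same stated housing, and the labels leave the number of litters unstated. P-values therefore measure only the spread between these libraries.

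Slc25 carriers let metabolites cross the otherwise tight inner membrane, usually by exchanging one molecule for another. In muscle the ADP/ATP carrier passes ATP out to the contractile apparatus and ADP in, the phosphate carrier supplies the other substrate of ATP synthase, and the aspartate-glutamate and oxoglutarate carriers move reducing equivalents from cytosolic NADH inwards. Other members bring in fatty acids bound to carnitine, cofactors made in the cytosol, iron, glutathione and amino acids.

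Promoter sequences (250 bases before to 50 after the RefSeq gene start, GRCm38.p6) were found in the RefSeq table for 36 of the 47 genes. The 3 shown belong to both carriers that rose, Slc25a24 and Slc25a34, and to Slc25a42, one of the carriers that fell in every setting tried. Each is written 5′ to 3′ on the strand of its gene, and capitals mark a match to a motif searched for on both strands. In Slc25a34 the capitals mark AAGGTCA, the half-site of oestrogen-related receptors, or its reverse complement, and in Slc25a42 they mark ATGGCGGC, a core of the YY1 motif, or its reverse complement. Slc25a24 lies at chr3:109122899-109123198, plus strand, Slc25a34 at chr4:141623785-141624084, minus strand, and Slc25a42 at chr8:70212232-70212531, minus strand.
Slc25a24: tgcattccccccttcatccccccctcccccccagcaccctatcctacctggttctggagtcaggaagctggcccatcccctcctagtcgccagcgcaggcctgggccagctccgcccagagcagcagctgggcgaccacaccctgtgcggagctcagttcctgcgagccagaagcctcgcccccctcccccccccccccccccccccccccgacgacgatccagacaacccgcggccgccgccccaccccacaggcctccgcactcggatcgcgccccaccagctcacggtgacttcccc
Slc25a34: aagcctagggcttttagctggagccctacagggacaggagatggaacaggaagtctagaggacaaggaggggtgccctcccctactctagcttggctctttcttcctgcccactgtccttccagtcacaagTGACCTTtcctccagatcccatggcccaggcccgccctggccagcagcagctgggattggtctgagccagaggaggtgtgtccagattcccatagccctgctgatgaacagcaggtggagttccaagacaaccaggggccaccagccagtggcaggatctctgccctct
Slc25a42: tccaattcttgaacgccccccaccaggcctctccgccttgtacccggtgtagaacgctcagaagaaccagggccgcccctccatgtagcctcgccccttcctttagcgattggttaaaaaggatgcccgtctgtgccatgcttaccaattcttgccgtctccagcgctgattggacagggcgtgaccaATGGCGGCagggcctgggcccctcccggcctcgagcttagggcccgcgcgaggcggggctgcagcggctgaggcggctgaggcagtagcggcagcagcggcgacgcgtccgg
The match in the Slc25a34 promoter stands 119 bases before the start, and that in the Slc25a42 promoter 62 bases before it. The Slc25a24 promoter held none of the 4 motifs searched. Its GC content was 72.3%, against 59.0% for Slc25a34 and 65.7% for Slc25a42. These promoters held 19, 1 and 26 CpG dinucleotides, in the same order, and the median over promoters of tested genes was 20.

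Across the 39 promoters of tested Slc25a genes the receptor half-site occurred in 1, which is 2.56%, against 3.21% of the 13906 promoters of tested genes and 4.72% of all 32841 promoters. Some genes, such as Slc25a14, have several promoters in the RefSeq table, so these 39 promoters come from fewer than 39 genes. The YY1 core likewise occurred in 1 of 39, against 4.36% of promoters of tested genes and 2.24% of all. CCGGAAGT, an ETS site bound by GABPA, occurred in 1 of 39, in Slc25a20, against 7.32% and 3.89%. The NRF1 motif, searched as its consensus palindrome, occurred in 0 of 39, against 1.89% and 0.971%. A match is a description of letters only, and the absence of one says nothing about a factor. The RefSeq table gave no entry for Slc25a26, Slc25a35 or Slc25a44, among others.

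Library totals lay between 17775898 and 20446920 counts. Levels are given as CPM, counts relative to the library total scaled with TMM factors, which correct for a few very abundant genes taking up a library, and means are ± SD over 3 libraries. Changes are log2 fold changes of Myf5Cre-Pcyt2 over control from edgeR's quasi-likelihood test, with a standard error (SE) and a Benjamini-Hochberg adjusted p over all tested genes, and a gene is said to have risen or fallen where that p was under 0.05. Pcyt2 itself had 353, 277 and 277 counts in the controls and 280, 328 and 272 in Myf5Cre-Pcyt2, and did not pass the threshold (log2 change -0.28 with SE 0.11 and adjusted p = 0.0944). Gene totals do not separate the floxed exons from the rest of Pcyt2, so its total is not a measure of the deletion. Myf5, whose locus drives Cre, did not pass either (log2 change 0.13 with SE 0.18 and adjusted p = 0.633). By Xist and Y-linked counts, control 3 and Myf5Cre-Pcyt2 3 were male, and the remaining libraries were female.

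In Myf5Cre-Pcyt2 muscle 8 Slc25a genes fell and 2 rose, so that 25.6% of the 39 tested members passed the threshold, against 18.6% of all tested genes. Those that fell included Slc25a3, Slc25a11, Slc25a26, Slc25a35, Slc25a39, Slc25a42 and Slc25a44, and the 8 make up 20.5% of the tested members against 9.59% of all tested genes. The 2 that rose were Slc25a24 and Slc25a34, which is 5.13% against 9.02% of all tested genes. In 16 members all 3 Myf5Cre-Pcyt2 values lay below all 3 control values, a pattern that 19.2% of all tested genes showed, and in 3 members they lay above, as in 19.9% of all tested genes. The other 20 members overlapped between the groups. The median log2 fold change was -0.14 over the tested members and -0.00197 over all tested genes. Without control 2, without Myf5Cre-Pcyt2 2 or without Myf5Cre-Pcyt2 3 the number that fell was 4, and the number that rose was 1 in each of these and without control 3.

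**Figure D1:**
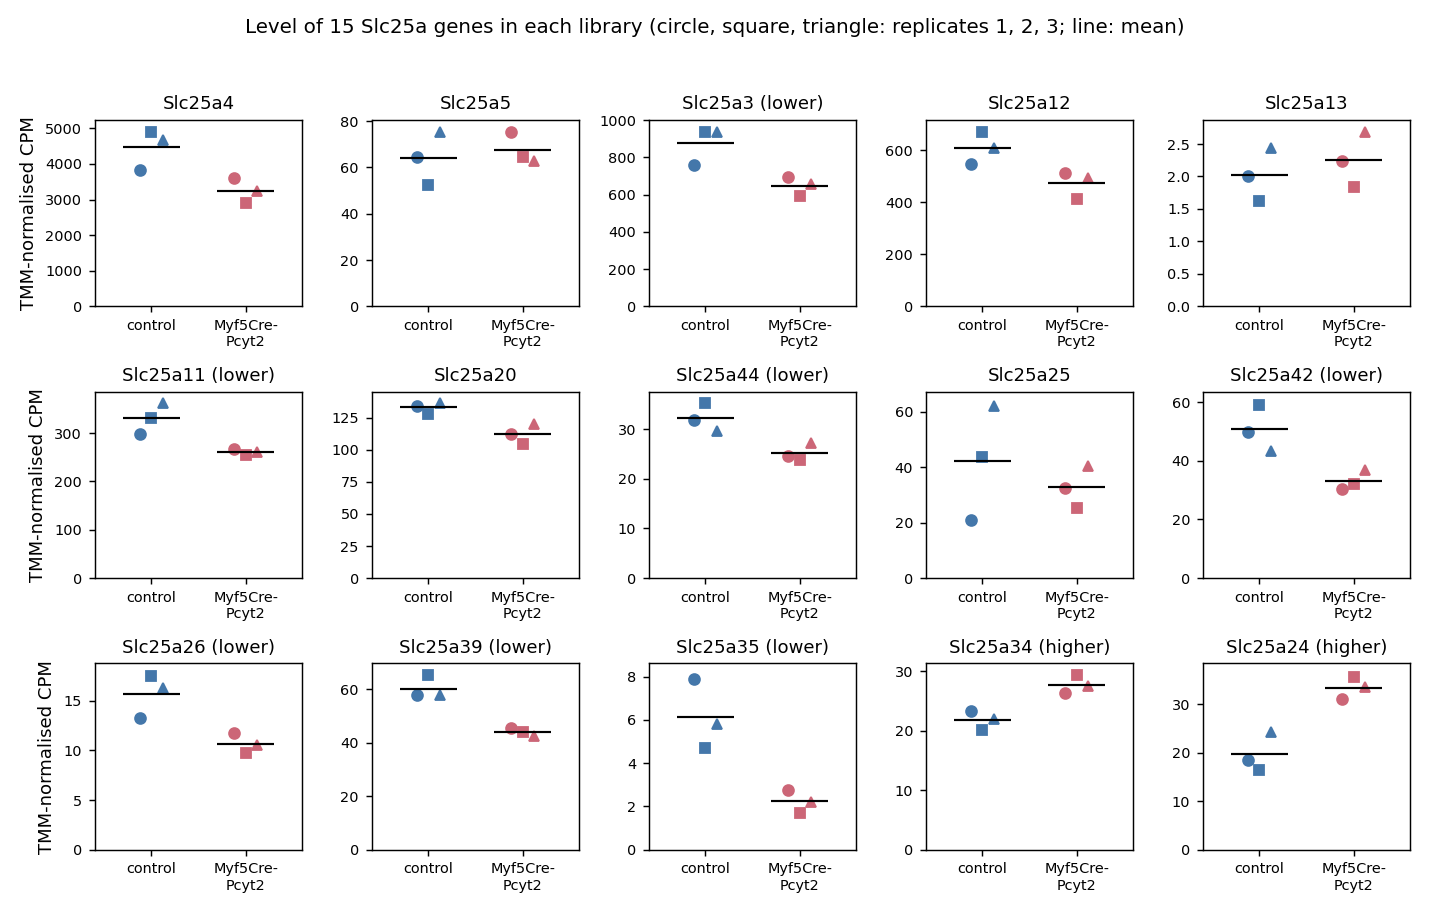
TMM-normalised CPM of 15 Slc25a genes in each of the 3 control and 3 Myf5Cre-Pcyt2 libraries, 1 point per library with a line at each mean. The Myf5Cre-Pcyt2 points lie below all control points for Slc25a3 (590 to 696 against 761 to 936 CPM) and above them for Slc25a24 (31.1 to 35.7 against 16.5 to 24.2 CPM).

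The ADP/ATP carriers exchange matrix ATP for cytosolic ADP. Slc25a4, the isoform of heart and skeletal muscle (ENSMUSG00000031633, chr8:46206797-46211284, minus strand), measured 3842, 4884 and 4685 CPM in control libraries 1 to 3 and 3597, 2894 and 3230.5 CPM in Myf5Cre-Pcyt2 libraries 1 to 3. All Myf5Cre-Pcyt2 values lay below all control values, yet the gene missed the threshold (log2 change -0.46 with SE 0.15 and adjusted p = 0.0540), with means of 4471 ± 553 in controls and 3240.3 ± 352 CPM in Myf5Cre-Pcyt2. Its adjusted p was 0.000845 to 0.212 over 13 alternative settings and was under 0.05 in 3 of them, with DESeq2 (0.000845), with no filter on low counts (0.00741) and without control 1 (0.0367). Slc25a4 supplied 60.8% of all Slc25a counts in controls and 58.1% in Myf5Cre-Pcyt2.

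Slc25a5, the isoform found in most tissues (ENSMUSG00000016319, chrX:36795651-36798807, plus strand), measured 64.3, 52.2 and 75.1 CPM in control libraries 1 to 3 and 75.4, 64.3 and 62.6 CPM in Myf5Cre-Pcyt2 libraries 1 to 3. The groups overlapped, and the estimate was near 0 (log2 change 0.08 with SE 0.13 and adjusted p = 0.705). It changed sign when control 2 was left out (-0.05) or when Myf5Cre-Pcyt2 1 was left out (-0.01). Of the 50-base stretches of its exons, 33.8% also occur in 9 other annotated genes, so its count is uncertain. Slc25a31, an isoform known from testis, had 1, 0 and 1 counts in the controls and 0, 0 and 7 in Myf5Cre-Pcyt2, and was not tested. Per length, Slc25a5 made up 2.34, 1.51 and 2.24% of Slc25a4 plus Slc25a5 in the controls and 2.91, 3.08 and 2.69% in Myf5Cre-Pcyt2. These shares did not overlap, and no test was made of them or of any other share between paralogs.

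The phosphate carrier Slc25a3, which imports the phosphate used by ATP synthase (ENSMUSG00000061904, chr10:91116574-91124059, minus strand), measured 761, 936 and 936 CPM in control libraries 1 to 3 and 696, 590.3 and 659 CPM in Myf5Cre-Pcyt2 libraries 1 to 3. The highest Myf5Cre-Pcyt2 value lay below the lowest control. Its level fell from 878 ± 101 to 648 ± 53.7 CPM (log2 change -0.44 with SE 0.12 and adjusted p = 0.0302). The call was lost without control 2 (adjusted p = 0.0807), control 3 (0.0716), Myf5Cre-Pcyt2 2 (0.124) or Myf5Cre-Pcyt2 3 (0.0984), and with sex as a covariate (0.0503). With library size alone as the scaling it was also lost, and Slc25a3 stood at a log2 change of -0.23 (adjusted p = 0.122). Slc25a4 and Slc25a3 kept nearly the same proportion, with a per-length ratio of 12.0 ± 0.266 in controls and 11.8 ± 0.358 in Myf5Cre-Pcyt2, whose values overlapped.

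The carriers deliver ADP and phosphate to ATP synthase, and creatine and adenylate kinases pass the energy on. Of 16 tested ATP synthase genes 3 fell and 0 rose, with a median log2 fold change of -0.33. Over all tested genes 9.59% fell and 9.02% rose, shares to set beside this list and the lists below. Atp5d, the delta subunit, measured 463, 528 and 500.4 CPM in the controls and 383, 331 and 345 CPM in Myf5Cre-Pcyt2 and fell (log2 change -0.49 with SE 0.10 and adjusted p = 0.0101). Atp5e, the epsilon subunit, measured 473, 478 and 609 CPM in the controls and 417, 314 and 307 CPM in Myf5Cre-Pcyt2 and fell (log2 change -0.59 with SE 0.14 and adjusted p = 0.0201). Neither overlapped between the groups. The count of ATP synthase genes that fell was 0 without Myf5Cre-Pcyt2 2 or 3, 1 without control 3 (Atp5e then at 0.0513), 5 without control 1, 7 without Myf5Cre-Pcyt2 1, 10 with DESeq2 and 1 with library size alone (Atp5e then at 0.0644). Of 7 tested kinases 3 fell and 0 rose, with a median of -0.26. Ckmt2, the mitochondrial creatine kinase of striated muscle, measured 539.6, 798 and 669 CPM in the controls and 369, 299 and 408 CPM in Myf5Cre-Pcyt2, without overlap. Its level fell from 669 ± 129 to 359 ± 55.3 CPM (log2 change -0.90 with SE 0.16 and adjusted p = 0.00571), and Ak1, the cytosolic adenylate kinase, fell from 1712 ± 216 to 1021 ± 109 CPM (log2 change -0.75 with SE 0.13 and adjusted p = 0.00602).

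The calcium-regulated carriers exchange ATP-Mg for phosphate and so set the adenine nucleotide content of the matrix. Slc25a24 (ENSMUSG00000040322, chr3:109123149-109168457, plus strand) measured 18.6, 16.5 and 24.2 CPM in control libraries 1 to 3 and 31.1, 35.7 and 33.6 CPM in Myf5Cre-Pcyt2 libraries 1 to 3. Every Myf5Cre-Pcyt2 value lay above every control value. Slc25a24 rose from 19.8 ± 4.001 to 33.5 ± 2.28 CPM (log2 change 0.76 with SE 0.13 and adjusted p = 0.00541), and it passed the threshold in 13 of 13 alternatives, with adjusted p from 1.01e-09 to 0.0321. Its relatives did not pass the threshold, and the difference between them and Slc25a24 was not tested. Slc25a23 had a log2 fold change of -0.23 with an adjusted p of 0.146 and lower values without overlap. Slc25a25 measured 21.0, 43.7 and 62.0 CPM in control libraries 1 to 3 and 32.6, 25.2 and 40.5 CPM in Myf5Cre-Pcyt2 libraries 1 to 3, a spread within the controls wider than the distance between the groups (log2 fold change -0.37, SE 0.31). Slc25a25 ranged from -0.69 to 0.02 over the alternatives and passed the threshold with no filter and without control 1. Slc25a41 had at most 3 counts in a library. Per length, Slc25a24 made up 38.2, 31.4 and 35.3% of these 3 tested carriers in the controls and 51.1, 56.3 and 50.9% in Myf5Cre-Pcyt2. In controls the levels of the 3 did not differ beyond their spread, at 5.76 ± 1.17 CPM per kb for Slc25a24, 5.35 ± 0.635 for Slc25a23 and 5.37 ± 2.62 for Slc25a25. In Myf5Cre-Pcyt2 these levels were 9.75 ± 0.664, 4.57 ± 0.291 and 4.16 ± 0.977 CPM per kb, in the same order.

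Calcium enters the matrix through the uniporter and its regulators. Of 7 tested genes of that list 1 fell and 0 rose, with a median of -0.20. Letm1, an ion exchanger of the inner membrane, measured 114, 124 and 116 CPM in the controls and 96.8, 85.9 and 91.8 CPM in Myf5Cre-Pcyt2 and fell (log2 change -0.36 with SE 0.08 and adjusted p = 0.0161). That call was lost without control 2 (0.0526), Myf5Cre-Pcyt2 2 (0.0765) or Myf5Cre-Pcyt2 3 (0.0613), and with library size alone, at a log2 change of -0.15 (0.203). Micu3, a regulator of the uniporter, missed the threshold (log2 change -0.42 with SE 0.15 and adjusted p = 0.0687) and passed it with DESeq2 (0.0411), with no filter (0.00250) and without Myf5Cre-Pcyt2 1 (0.0365). In each of these settings 2 genes of the list fell.

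**Figure D2:**
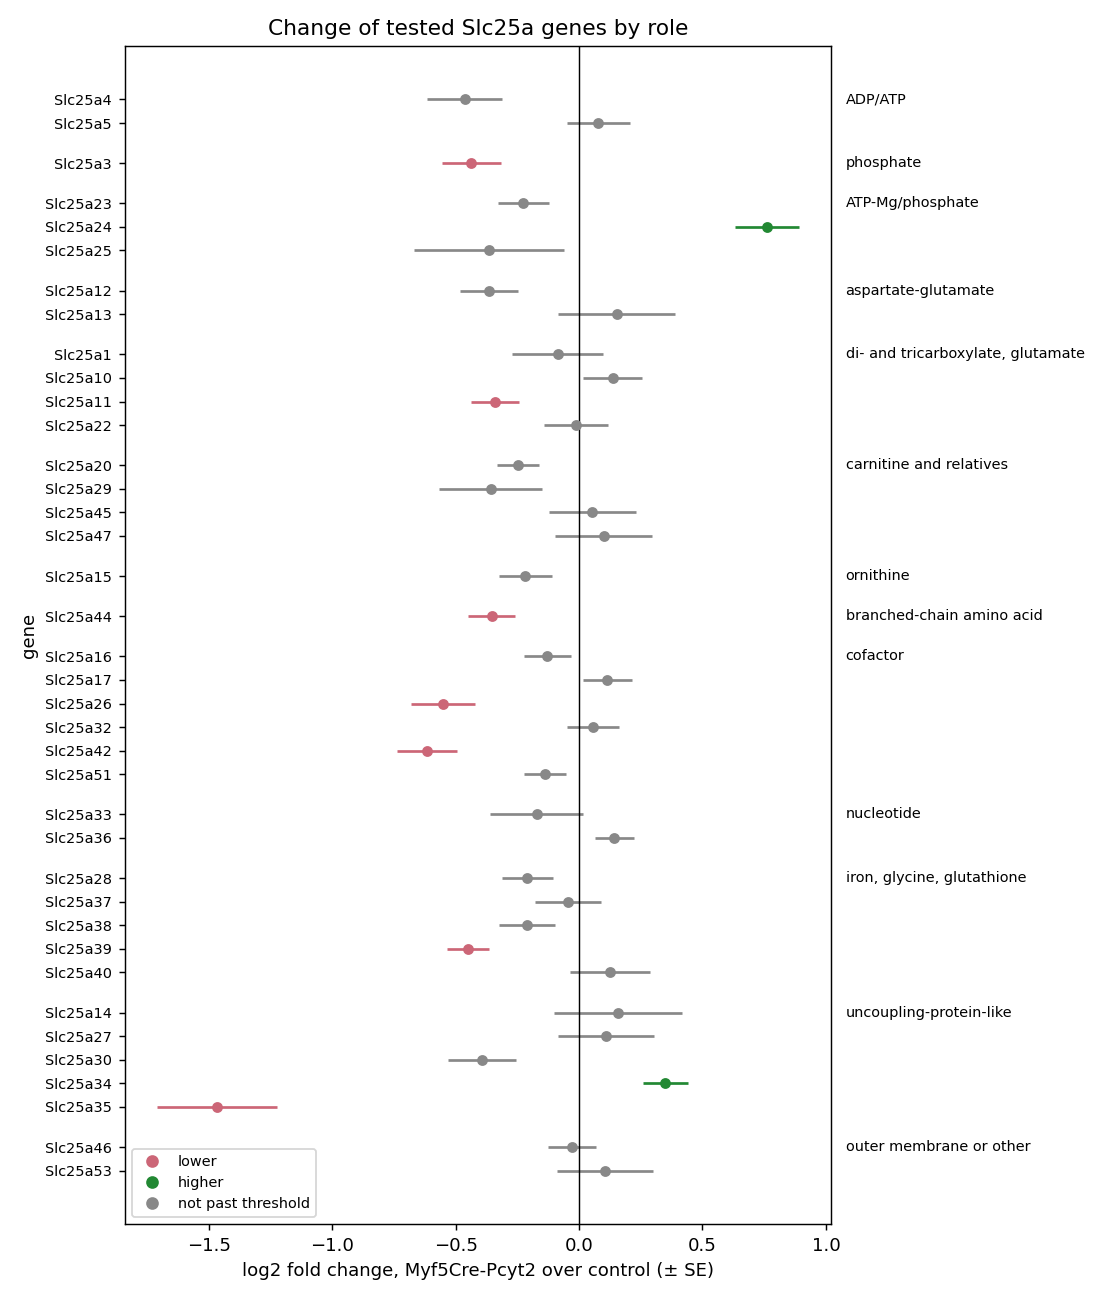
Log2 fold change of Myf5Cre-Pcyt2 over control with its standard error for tested Slc25a genes, grouped by role and coloured by whether they passed the threshold. Slc25a35 stands lowest at -1.47 and Slc25a24 highest at 0.76, and the cofactor carriers Slc25a26 and Slc25a42 are at -0.55 and -0.62.

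The aspartate-glutamate carriers drive the malate-aspartate shuttle, which moves the electrons of cytosolic NADH into mitochondria. Slc25a12, the main isoform of muscle and brain (ENSMUSG00000027010, chr2:71271063-71367749, minus strand), measured 549, 670.2 and 608 CPM in control libraries 1 to 3 and 512, 414 and 494 CPM in Myf5Cre-Pcyt2 libraries 1 to 3. The groups did not overlap, but the gene missed the threshold (log2 change -0.36 with SE 0.12 and adjusted p = 0.0552), with means of 609 ± 60.5 in controls and 473 ± 52.4 CPM in Myf5Cre-Pcyt2. It passed with DESeq2 (0.00919), with no filter (0.0142) and without control 1 (0.0379), and its adjusted p was 0.00919 to 0.258 over the 13 alternatives. Slc25a13, the liver isoform citrin (ENSMUSG00000015112, chr6:6041218-6217173, minus strand), measured 2.01, 1.62 and 2.43 CPM in control libraries 1 to 3 and 2.24, 1.83 and 2.68 CPM in Myf5Cre-Pcyt2 libraries 1 to 3. These values overlapped (log2 change 0.15 with SE 0.24 and adjusted p = 0.686). Per length, Slc25a13 made up 0.646 ± 0.158% of the pair in controls and 0.909 ± 0.112% in Myf5Cre-Pcyt2.

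Slc25a11, the oxoglutarate-malate exchanger and the other carrier of that shuttle (ENSMUSG00000014606, chr11:70644196-70647479, minus strand), measured 299, 332 and 362 CPM in control libraries 1 to 3 and 268, 255 and 262 CPM in Myf5Cre-Pcyt2 libraries 1 to 3. All 3 Myf5Cre-Pcyt2 values lay within a narrow band below the controls. Slc25a11 fell from 331 ± 31.5 to 261 ± 6.32 CPM (log2 change -0.34 with SE 0.10 and adjusted p = 0.0356). The call was lost when any one library other than control 1 was left out, with adjusted p of 0.0767 without control 2, 0.0861 without control 3, and 0.0602, 0.118 and 0.114 without Myf5Cre-Pcyt2 1, 2 and 3, and also with sex as a covariate (0.0512). With library size alone the log2 change of Slc25a11 was -0.13 (adjusted p = 0.363). Its exons share 189 bases, 8.92% of their length, with Rnf167 on the opposite strand, and no source used here gives the strand setting of the counting.

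The enzymes of the shuttles feed these carriers. Of 6 tested NADH shuttle enzymes 4 fell and 0 rose, against 9.59% and 9.02% of all tested genes, with a median of -0.50. Mdh2, the mitochondrial malate dehydrogenase, measured 1004, 1226 and 1039.6 CPM in the controls and 743, 648 and 736 CPM in Myf5Cre-Pcyt2, and fell (log2 change -0.62 with SE 0.12 and adjusted p = 0.00769). Got1, the cytosolic aspartate aminotransferase, fell from 306 ± 52.5 to 206 ± 20.3 CPM (log2 change -0.57 with SE 0.13 and adjusted p = 0.0162). Without control 2 or without Myf5Cre-Pcyt2 2 only 1 of the enzymes fell, and Got1 then missed the threshold (0.0558 and 0.0768).

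The remaining dicarboxylate, citrate and glutamate carriers did not pass. Slc25a1, the citrate exporter, had a log2 fold change of -0.09, Slc25a10, the dicarboxylate carrier, 0.14, and Slc25a22, a glutamate carrier, -0.01, all with overlapping groups. Of 7 tested genes of citrate synthesis and its use in the cytosol 3 fell and 0 rose, with a median of -0.18. Me1, the cytosolic malic enzyme, fell from 46.5 ± 14.1 to 23.8 ± 10.2 CPM (log2 change -0.97 with SE 0.28 and adjusted p = 0.0372). The count was 0 without Myf5Cre-Pcyt2 1 or 2 and 1 without control 2, control 3 or Myf5Cre-Pcyt2 3. Me1 missed the threshold without control 1, control 3, Myf5Cre-Pcyt2 1 or Myf5Cre-Pcyt2 2 (0.0508 to 0.108), and also with DESeq2 (0.104) and with library size alone (0.0641).

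Slc25a20, the carnitine-acylcarnitine carrier that takes long-chain fatty acids into the matrix for oxidation (ENSMUSG00000032602, chr9:108662088-108684641, plus strand), measured 134, 128 and 137 CPM in control libraries 1 to 3 and 112, 104 and 120.2 CPM in Myf5Cre-Pcyt2 libraries 1 to 3. Each Myf5Cre-Pcyt2 value lay below each control, but the gene missed the threshold (log2 change -0.25 with SE 0.09 and adjusted p = 0.0689). Means were 133 ± 4.40 in controls and 112 ± 7.97 CPM in Myf5Cre-Pcyt2. It passed the threshold in 0 of 13 alternatives, with adjusted p from 0.0532 to 0.793. Its relatives Slc25a29 (-0.36), Slc25a45 (0.05) and Slc25a47 (0.10) overlapped between the groups, and Slc25a48 was not tested.

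Among 6 tested genes of the carnitine shuttle 2 fell and 2 rose, with a median of -0.26. Slc22a5, which takes carnitine into the cell, measured 14.7, 17.3 and 13.8 CPM in the controls and 10.3, 9.26 and 10.9 CPM in Myf5Cre-Pcyt2 and fell (log2 change -0.59 with SE 0.12 and adjusted p = 0.0105). Cpt1c, the carnitine palmitoyltransferase known from neurons, measured 2.59, 2.49 and 2.03 CPM in the controls and 3.63, 5.68 and 4.80 CPM in Myf5Cre-Pcyt2 and rose (log2 change 0.99 with SE 0.21 and adjusted p = 0.0126). Neither gene overlapped between the groups. Without Myf5Cre-Pcyt2 2 the list held 0 that fell and 0 that rose, without control 2 it held 1 that fell, and without Myf5Cre-Pcyt2 3 it held 1 that rose. With Myf5Cre-Pcyt2 2 left out, the adjusted p was 0.0533 for Slc22a5 and 0.0640 for Cpt1c.

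Cofactor carriers held 3 of the 8 Slc25a genes that fell. Of 7 tested cofactor carriers these 3 fell and 0 rose, against 9.59% and 9.02% of all tested genes. Their median log2 fold change was -0.14, as it was over all tested members. Slc25a42, which exchanges coenzyme A for adenine nucleotides (ENSMUSG00000002346, chr8:70184340-70212305, minus strand), measured 49.9, 59.1 and 43.4 CPM in control libraries 1 to 3 and 30.3, 32.2 and 37.0 CPM in Myf5Cre-Pcyt2 libraries 1 to 3. The groups did not overlap. It fell from 50.8 ± 7.88 to 33.1 ± 3.45 CPM (log2 change -0.62 with SE 0.12 and adjusted p = 0.00887) and passed in 13 of 13 alternatives, with adjusted p from 5.54e-07 to 0.0474. Slc25a16, a carrier also linked to coenzyme A, did not pass (-0.13), and made up 49.9 ± 4.40% of Slc25a16 plus Slc25a42 per length in controls and 58.2 ± 3.34% in Myf5Cre-Pcyt2.

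Slc25a26, the importer of S-adenosylmethionine for methylation inside mitochondria (ENSMUSG00000045100, chr6:94500331-94604672, plus strand), measured 13.2, 17.5 and 16.2 CPM in control libraries 1 to 3 and 11.7, 9.74 and 10.5 CPM in Myf5Cre-Pcyt2 libraries 1 to 3. Here too the groups stood apart. Slc25a26 fell from 15.6 ± 2.17 to 10.7 ± 1.01 CPM (log2 change -0.55 with SE 0.13 and adjusted p = 0.0163). It missed the threshold without control 2 (0.0612), Myf5Cre-Pcyt2 2 (0.0756) or Myf5Cre-Pcyt2 3 (0.0565), and with library size alone, at a log2 change of -0.34 (0.0732). Its exons share 144 bases with Lrig1 on the opposite strand. Further cofactor carriers gave log2 fold changes of 0.11 for Slc25a17, a peroxisomal carrier, 0.06 for Slc25a32, linked to folate and FAD, and -0.14 for Slc25a51, the NAD carrier, and none of these passed.

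Folate metabolism inside mitochondria held 5 tested genes, of which 1 fell and 1 rose, with a median of -0.15. Mthfd1l, which makes formate in mitochondria, measured 3.07, 3.07 and 3.59 CPM in the controls and 7.31, 7.25 and 5.36 CPM in Myf5Cre-Pcyt2 and rose (log2 change 1.03 with SE 0.18 and adjusted p = 0.00575). Shmt2, the mitochondrial serine hydroxymethyltransferase, fell from 36.6 ± 2.49 to 28.8 ± 2.54 CPM (log2 change -0.35 with SE 0.09 and adjusted p = 0.0288). The rise of Mthfd1l was called in all 13 alternatives, whereas the count that fell was 0 without control 2, Myf5Cre-Pcyt2 2 or Myf5Cre-Pcyt2 3, and Shmt2 also missed without control 3 (0.0505) and with library size alone, at a log2 change of -0.14 (0.315).

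Slc25a44, which imports branched-chain amino acids (ENSMUSG00000050144, chr3:88410498-88425139, minus strand), measured 31.9, 35.2 and 29.6 CPM in control libraries 1 to 3 and 24.7, 23.8 and 27.2 CPM in Myf5Cre-Pcyt2 libraries 1 to 3. The groups did not overlap. Slc25a44 fell from 32.2 ± 2.82 to 25.2 ± 1.77 CPM (log2 change -0.35 with SE 0.10 and adjusted p = 0.0283), and passed in 7 of 13 alternatives, with adjusted p from 0.0138 to 0.327. The call was lost without control 2 (0.0991), Myf5Cre-Pcyt2 1 (0.0675), Myf5Cre-Pcyt2 2 (0.119) or Myf5Cre-Pcyt2 3 (0.0514). With library size alone its log2 change was -0.14 (adjusted p = 0.327). Of 7 tested genes of branched-chain amino acid breakdown 6 fell and 0 rose, with a median of -0.57. Over all tested genes the shares were 9.59% and 9.02%, and the list includes an inhibitor of the pathway, Bckdk. Bcat2, the mitochondrial aminotransferase that starts the pathway, measured 26.8, 29.7 and 28.7 CPM in the controls and 19.9, 18.3 and 18.8 CPM in Myf5Cre-Pcyt2, a gap wider than the spread within either group. It fell from 28.4 ± 1.49 to 19.0 ± 0.846 CPM (log2 change -0.58 with SE 0.09 and adjusted p = 0.00365). Bckdk, the kinase that inhibits the branched-chain oxoacid dehydrogenase, fell from 119 ± 12.3 to 79.8 ± 7.31 CPM (log2 change -0.57 with SE 0.10 and adjusted p = 0.00629). Without Myf5Cre-Pcyt2 2 or Myf5Cre-Pcyt2 3, 3 of the 7 fell.

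Among carriers of iron, glycine and glutathione, Slc25a39, which takes glutathione into mitochondria (ENSMUSG00000018677, chr11:102402985-102407946, minus strand), measured 57.8, 65.2 and 57.8 CPM in control libraries 1 to 3 and 45.5, 44.1 and 42.7 CPM in Myf5Cre-Pcyt2 libraries 1 to 3. The Myf5Cre-Pcyt2 libraries lay close together and below all controls. Slc25a39 fell from 60.3 ± 4.27 to 44.1 ± 1.40 CPM (log2 change -0.45 with SE 0.08 and adjusted p = 0.00712), and passed in 12 of 13 alternatives, the exception being library size alone, at a log2 change of -0.24 (0.0731). Its paralog Slc25a40 had a log2 fold change of 0.12 with overlap, and made up 2.99 ± 0.548% of the pair per length in controls and 4.37 ± 0.361% in Myf5Cre-Pcyt2. The iron carriers Slc25a37 (-0.04) and Slc25a28 (-0.21) and the glycine carrier Slc25a38 (-0.21) did not pass, although Slc25a28 and Slc25a38 were lower without overlap. Per length, Slc25a37 made up 51.4 ± 2.36% of Slc25a28 plus Slc25a37 in controls and 53.9 ± 4.07% in Myf5Cre-Pcyt2, and these shares overlapped.

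Haem and iron-sulfur synthesis, which draws on the iron and glycine these carriers bring in, held 11 tested genes, of which 6 fell and 0 rose, with a median of -0.42. Over all tested genes the shares were 9.59% and 9.02%. Alas1, the first enzyme of haem synthesis outside red cells, measured 113, 129 and 113 CPM in the controls and 79.0, 74.3 and 84.4 CPM in Myf5Cre-Pcyt2 and fell (log2 change -0.58 with SE 0.09 and adjusted p = 0.00414). Fech, which inserts iron into the porphyrin ring, fell from 104 ± 12.5 to 64.2 ± 7.57 CPM (log2 change -0.70 with SE 0.11 and adjusted p = 0.00459). Leaving out single libraries kept the number that fell within 1.5 times of 6. Over all 13 alternatives that number was between 3 and 7, and 1 alternative moved it by more than 1.5 times. Red blood cell markers summed to 225 to 334 CPM in controls and 262 to 360 CPM in Myf5Cre-Pcyt2, with 1 of 6 tested markers higher (0 without control 1, control 2, Myf5Cre-Pcyt2 1 or Myf5Cre-Pcyt2 3, and 2 without control 3). Their part in the haem result was not tested.

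Both a fall and a rise were found among the carriers that resemble uncoupling proteins. Slc25a35 (ENSMUSG00000018740, chr11:68968131-68974365, plus strand) had 149, 81 and 100 counts in controls 1 to 3 and 52, 39 and 48 in Myf5Cre-Pcyt2 1 to 3. In CPM these were 7.89, 4.70 and 5.79 CPM in the controls and 2.78, 1.70 and 2.22 CPM in Myf5Cre-Pcyt2, so that the groups stood far apart for a gene of this level. It fell from 6.13 ± 1.62 to 2.23 ± 0.537 CPM (log2 change -1.47 with SE 0.24 and adjusted p = 0.00473), the largest change among the tested members, and passed in 13 of 13 alternatives, with adjusted p from 5.65e-11 to 0.0300. The exons of Slc25a35 share 1151 bases, 31.3% of their length, with Rangrf on the opposite strand, which had 35, 41 and 51 counts in controls and 48, 38 and 42 in Myf5Cre-Pcyt2. Without the strand setting, reads of the shared stretch cannot be told apart.

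Slc25a34, another carrier of this group (ENSMUSG00000040740, chr4:141618824-141623821, minus strand), measured 23.4, 20.1 and 22.0 CPM in control libraries 1 to 3 and 26.4, 29.4 and 27.6 CPM in Myf5Cre-Pcyt2 libraries 1 to 3. Every Myf5Cre-Pcyt2 value lay above every control. Slc25a34 rose from 21.8 ± 1.67 to 27.8 ± 1.49 CPM (log2 change 0.35 with SE 0.09 and adjusted p = 0.0256). The call was lost without control 2 (0.0886), control 3 (0.0524), Myf5Cre-Pcyt2 2 (0.110) or Myf5Cre-Pcyt2 3 (0.0803). Among the other carriers of this group, Slc25a30 had a log2 fold change of -0.39 with an adjusted p of 0.0721 and no overlap, and passed without control 3 and with no filter. Slc25a14 (0.16) and Slc25a27 (0.11) overlapped.

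Carriers of the same family that bear other symbols held 5 tested genes, of which 1 fell and 0 rose. Ucp2, an uncoupling protein, measured 133, 116 and 92.3 CPM in the controls and 79.4, 82.4 and 66.5 CPM in Myf5Cre-Pcyt2 and fell (log2 change -0.58 with SE 0.13 and adjusted p = 0.0157). That call was lost without control 2 (0.0504) or Myf5Cre-Pcyt2 3 (0.0657) or with library size alone (0.0706), and 2 genes of the list fell without Myf5Cre-Pcyt2 1. Ucp1, the uncoupling protein of brown fat, measured 75.5, 1.80 and 30.9 CPM in the controls and 8.22, 7.20 and 7.11 CPM in Myf5Cre-Pcyt2. Its control values differed from each other by more than the groups did, and it missed the threshold (log2 change -2.27 with SE 0.78 and adjusted p = 0.0660), passing without control 2 (0.00297) and with no filter. Adipocyte markers, a list that holds Ucp1, summed to 315 to 910 CPM in controls, highest in control 1, and 435 to 500 CPM in Myf5Cre-Pcyt2, with 0 of 8 past the threshold by edgeR or DESeq2 and 3 at an unadjusted p under 0.05. Without control 2, 4 of them were lower, and with no filter 7.

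The nucleotide carriers Slc25a33 (-0.17) and Slc25a36 (0.14) and the ornithine carrier Slc25a15 (-0.22) did not pass, and Slc25a36 was higher without overlap. Slc25a33 passed without Myf5Cre-Pcyt2 1 (0.0465). Per length, Slc25a36 made up 40.8 ± 2.49% of Slc25a33 plus Slc25a36 in controls and 46.7 ± 8.03% in Myf5Cre-Pcyt2, and these shares overlapped. Slc25a46, an outer-membrane protein of mitochondrial dynamics, had -0.03, and Slc25a53, of unknown substrate, 0.10. In all, 29 tested members did not pass, with log2 fold changes from -0.46 to 0.16, 17 of them negative and 12 positive. The 8 untested members were Slc25a2, Slc25a18, Slc25a21, Slc25a31, Slc25a41, Slc25a43, Slc25a48 and Slc25a54, which had at most 10 counts in any library. Slc25a54 had 0 counts in every library, which allows a level of up to 0.131 to 0.174 CPM per library, counting error only.

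Levels can be compared between genes per kilobase of exon. Slc25a4 led with 1900 ± 235 CPM per kb in controls and 1377 ± 149 in Myf5Cre-Pcyt2. Slc25a3 (158 ± 18.1 in controls, 117 ± 9.68 in Myf5Cre-Pcyt2) and Slc25a11 (156 ± 14.9 and 123 ± 2.98) followed at levels that did not differ beyond their spread. Next came Slc25a12 (83.0 ± 8.24 and 64.5 ± 7.14), Slc25a5 (38.8 ± 6.95 and 41.0 ± 4.24) and Slc25a20 (27.5 ± 0.908 and 23.2 ± 1.65), each apart from its neighbours in controls by more than the SDs. Slc25a46 (17.7 ± 1.28 in controls, 17.3 ± 1.66 in Myf5Cre-Pcyt2) and Slc25a51 (15.6 ± 1.06 and 14.2 ± 0.501) lay close together. The lowest tested member, Slc25a53, stood at 0.312 ± 0.0115 in controls.

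**Figure D3:**
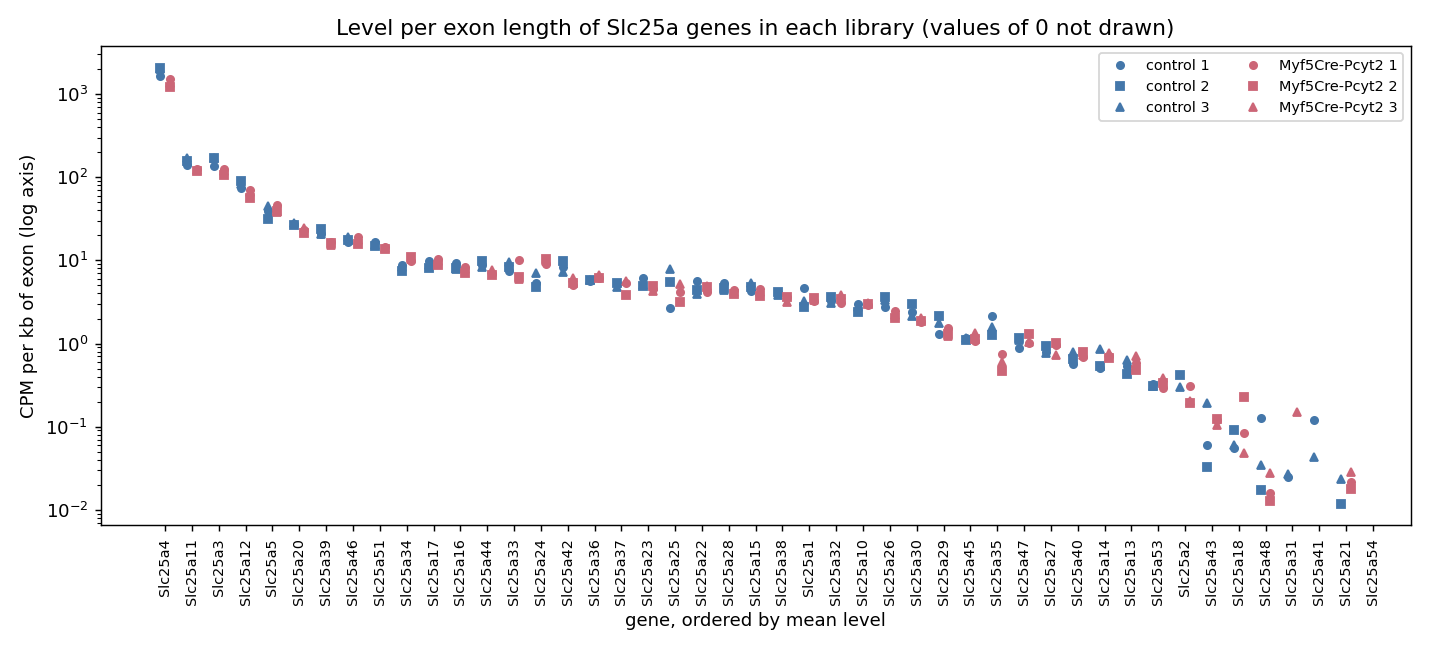
TMM-normalised CPM per kilobase of exon of the Slc25a genes on a log axis, 1 point per library and values of 0 not drawn, with genes ordered by their mean level. Slc25a4 stands apart at means of 1900 CPM per kb in controls and 1377 in Myf5Cre-Pcyt2, and the tested members reach down to 0.312 CPM per kb in controls.

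The 10 members with the highest level per length held 4 that fell and 0 that rose, with 8 whose groups stood apart downwards and a median log2 fold change of -0.35. The other 29 tested members held 4 that fell and 2 that rose, with 8 standing apart downwards and a median of -0.04. Over all tested genes 9.59% fell, 9.02% rose and 19.2% stood apart downwards. Whether these medians differ was not tested. Slc25a genes took up 0.628, 0.671 and 0.744% of all counts in the controls and 0.620, 0.566 and 0.608% in Myf5Cre-Pcyt2, so the groups stood apart by a narrow margin. Their summed level was 7341 ± 741 CPM in controls and 5575 ± 499 CPM in Myf5Cre-Pcyt2, and without Slc25a4 2870 ± 190 and 2334 ± 156 CPM.

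**Figure D4:**
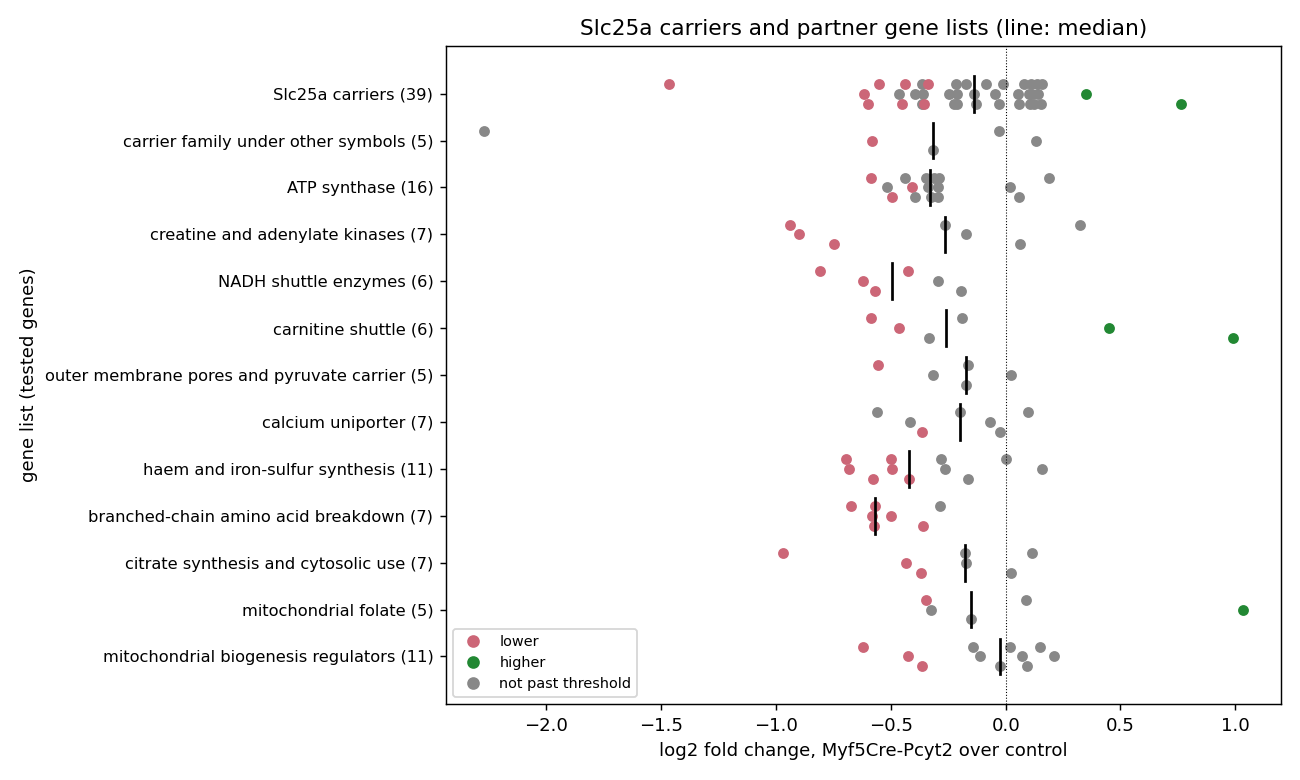
Log2 fold change of each tested gene for the Slc25a carriers and the lists of partner genes, with a line at the median of each list. Medians lie at -0.14 for the carriers, -0.57 for branched-chain amino acid breakdown and -0.02 for regulators of mitochondrial biogenesis.

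Other mitochondrial families gave a scale for these counts. Of 36 tested complex I subunits 31 fell and 0 rose (median -0.43), of 77 mitochondrial ribosomal proteins 32 fell and 1 rose (median -0.30), and of 22 import genes 6 fell and 0 rose (median -0.21). Over all tested genes 9.59% fell and 9.02% rose. Among 196 tested solute carriers outside Slc25a, 17 fell and 19 rose, with a median of 0.05. In the list of outer membrane pores and the pyruvate carrier 1 of 5 fell. Mpc2, a subunit of the pyruvate carrier, fell from 187 ± 17.2 to 127 ± 14.6 CPM (log2 change -0.56 with SE 0.11 and adjusted p = 0.00817), and Vdac1, the main outer-membrane pore, did not pass (log2 change -0.32 with SE 0.13 and adjusted p = 0.0999), except with DESeq2 (0.0186).

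Regulators of mitochondrial biogenesis held 11 tested genes, of which 3 fell and 0 rose, with a median of -0.02. Esrrg, an oestrogen-related receptor of oxidative muscle, measured 27.9, 27.8 and 29.8 CPM in the controls and 22.7, 18.7 and 22.3 CPM in Myf5Cre-Pcyt2, and Esrra, its relative, 82.3, 88.0 and 83.6 CPM in the controls and 68.7, 60.4 and 68.4 CPM in Myf5Cre-Pcyt2. Neither overlapped between the groups. Esrrg fell from 28.5 ± 1.10 to 21.2 ± 2.23 CPM (adjusted p = 0.0155), and Esrra fell from 84.6 ± 2.98 to 65.8 ± 4.72 CPM (log2 change -0.36 with SE 0.08 and adjusted p = 0.0163). Without Myf5Cre-Pcyt2 2 the count was 0, with adjusted p of 0.0701 for Esrrg and 0.0800 for Esrra, and Esrra also missed without control 2 (0.0569). With library size alone neither passed (0.172 for Esrrg and 0.225 for Esrra). Ppargc1a, a coactivator of these receptors, named after its value was seen, had a log2 fold change of -0.02 with an adjusted p of 0.919.

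Markers of cell types moved alongside these results. Summed markers of skeletal muscle fibres reached 152288 to 207326 CPM in controls and 97218 to 128255 CPM in Myf5Cre-Pcyt2, with 3 of 8 lower and 0 higher, and these calls numbered 0 without Myf5Cre-Pcyt2 2 or 3 and 1 without control 2. Schwann cell markers summed to 428 to 523 CPM in controls and 635 to 859 CPM in Myf5Cre-Pcyt2, with 5 of 8 higher (3 without control 2 and 2 without Myf5Cre-Pcyt2 2). Fibroblast markers summed to 11909 to 15576 CPM in controls and 16609 to 18719 CPM in Myf5Cre-Pcyt2, with 2 of 8 higher (2 to 6 over the alternatives). Sums of endothelial markers (757 to 908 and 789 to 890 CPM) and of macrophage markers (166 to 203 and 179 to 212 CPM) overlapped between the groups. Of 8 endothelial markers 1 was lower and 0 higher, a call lost in 7 alternatives, and of 8 macrophage markers 0 passed. Over the alternatives 0 to 2 endothelial markers were higher. For macrophage markers 0 to 3 were higher and 0 to 1 lower. Over all tested genes 9.59% were lower and 9.02% higher. No marker of these lists was at 0 in every library. The part of these shifts in the changes of the carriers was not tested.

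**Figure D5:**
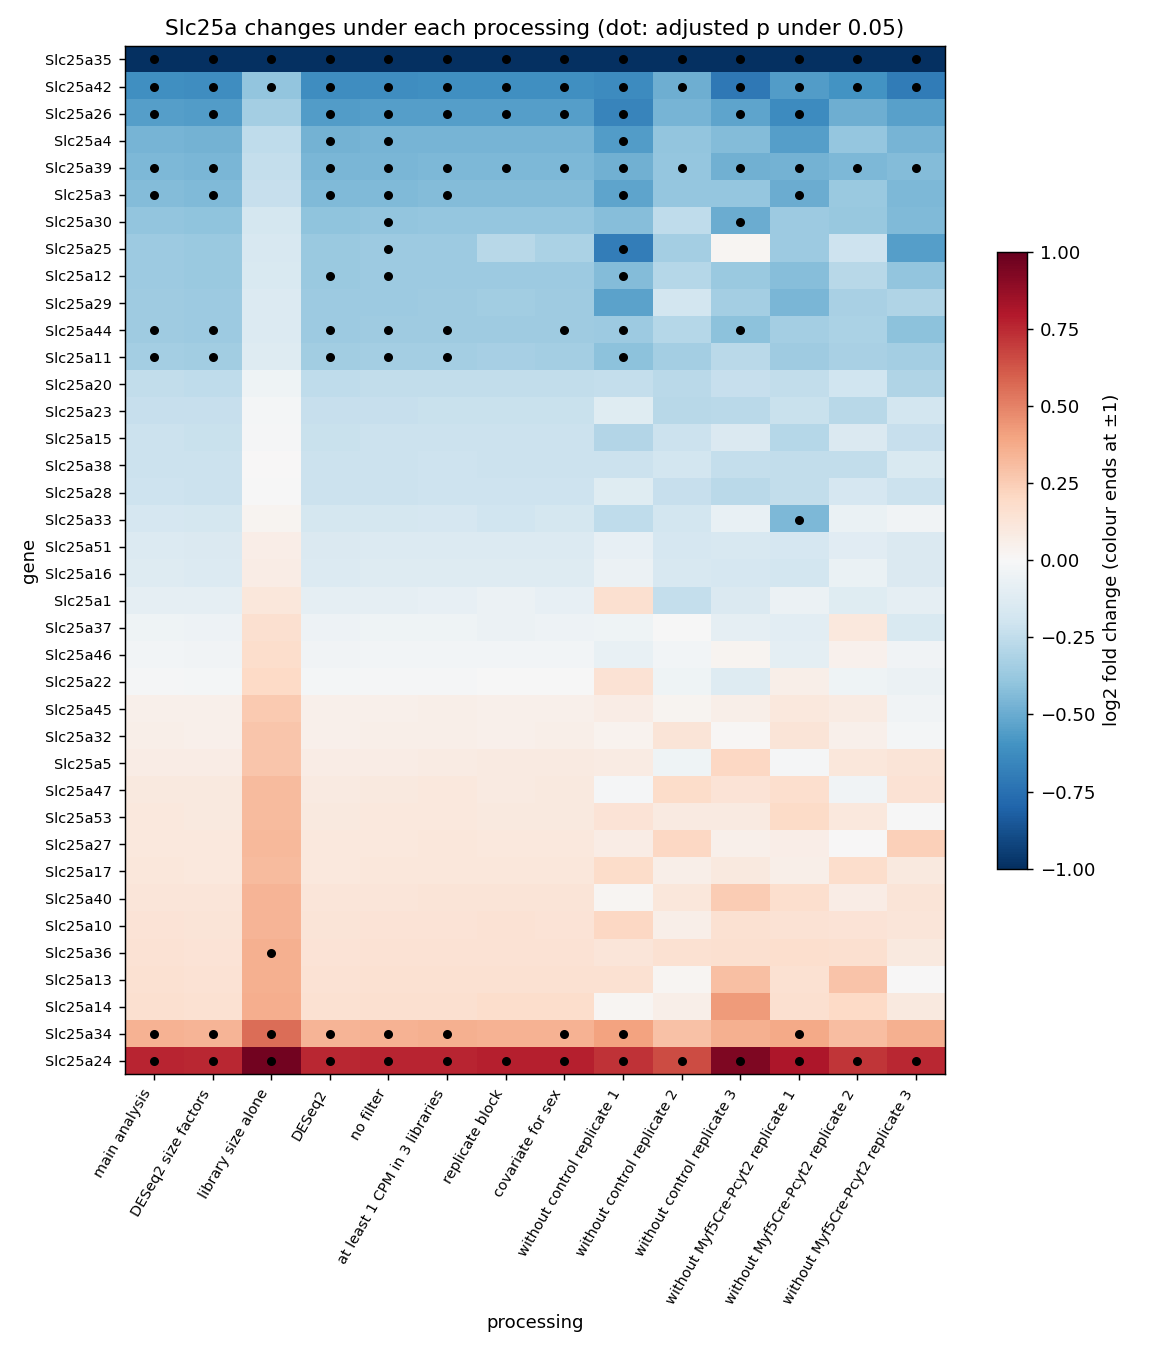
Log2 fold change of tested Slc25a genes (rows) in the analysis as reported and under 13 alternative settings (columns), blue for lower and red for higher in Myf5Cre-Pcyt2, with a dot where the adjusted p was under 0.05. Slc25a35 and Slc25a42 stay lower and Slc25a24 higher with a dot under all 13, whereas Slc25a5 and other members near 0 take both colours.

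Slc25a24, Slc25a35 and Slc25a42 were among the members called in all 13 alternatives. Scaling by library size alone, without TMM factors, shifted the median of all tested genes by 0.21 on the log2 scale and put the median of the members at 0.07, against 0.21 for all tested genes, so the negative sign of the members' median holds relative to the typical gene and not to the library total. With that scaling 3 members fell and 3 rose.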

How the data were processed

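The authors deposited a table of raw counts per Ensembl gene for 6 quadriceps libraries. Per the submitters' processing notes, which give no role or order, the tools were Trim Galore 0.5.0, Bowtie2 2.3.4.1, featureCounts and Subread 1.6.2, and the genome builds GRCm38 and mm10. Not given in the sources used here are the annotation release, the strand setting and the treatment of reads that map to several places. Symbols, positions and exon lengths came from GENCODE M21 (54495 of 54532 gene IDs matched). The members, the role groups, the partner and marker lists and the rule for named genes were chosen with earlier results of these data known.

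Genes were filtered with filterByExpr (14715 kept) and compared, 3 libraries against 3, with edgeR 4.0.16's quasi-likelihood test in R 4.3.3, two-sided, after TMM scaling, with Benjamini-Hochberg adjustment over all tested genes and a threshold of 0.05. Limma 3.58.1, DESeq2 1.42.0, Python 3.11.15, pandas 2.3.3 and matplotlib 3.10.9 were also used. The biological coefficient of variation was 11.6%. The procedure was checked on simulated counts with known changes. It recovered 47.8% of 1.5-fold, 80.6% of 2-fold and 93.9% of 4-fold changes, and smaller changes were not simulated. Of its 160 calls there, 12 were of genes without a change. A member that did not pass is therefore not shown to be unchanged. The rule named all members past the threshold, the ADP/ATP, phosphate, carnitine and aspartate-glutamate carriers, the 5 most abundant members per length, Pcyt2 and Myf5, and up to 2 genes with the smallest p of each partner list. The rule also selected 2 genes that are not reported here, and they remain in the totals. Shared sequence was counted as 50-base words of the exons that also occur in other annotated genes. Alternatives were scaling by library size alone, DESeq2's size factors in the edgeR fit, the DESeq2 test, no filter, at least 1 CPM in 3 libraries, a replicate block, sex as a covariate, and leaving out each library in turn. The labels state no pairing and libraries of the same replicate number did not vary together, so the test did not pair them. Whether any pups of the 2 groups shared a litter is not known. No 2 libraries were copies of each other. The number of reads behind each level limits its precision, and errors cover the spread between these libraries only.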

Additional observations from a re-analysis of the deposited data

How the results depend on the processing

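The number of Slc25a genes that fell (8) was 3 under scaling by library size alone, 5 under the replicate block, 6 with sex as a covariate, 10 with DESeq2, 12 with no filter on low counts, 8 with DESeq2 size factors and with at least 1 CPM in 3 libraries, and between 4 and 11 when single libraries were left out, highest without control 1. The number that rose (2) was 1 under the replicate block, 3 under library size alone, and 1 or 2 without single libraries. Libraries of the same replicate number showed correlations of -0.11, -0.17 and 0.02 between their deviations, so the number is no evidence of pairing and calls lost under the replicate block are not read as weaker effects; among these were Slc25a3 (adjusted p = 0.104), Slc25a11 (0.108), Slc25a34 (0.0681), Slc25a44 (0.0710), Letm1 (0.0551), Shmt2 (0.0687) and Esrra (0.0544). The log2 fold change of Slc25a5 turned to -0.0463 without control 2 and to -0.01 without Myf5Cre-Pcyt2 1. That of the endothelial marker Pecam1 turned to 0.0738 with library size alone, a setting that shifted the median of all tested genes by 0.21. Over the tested members selected by the rule for named genes, 156 values under alternatives kept direction and side of the threshold. Of the others, 31 lost the threshold, 6 gained it and 2 changed sign. Members outside that rule were not counted, and among them Slc25a25 both gained the threshold and changed sign. Counts of genes that fell or rose over the partner and marker lists moved by more than 1.5 times, or to or from 0, in 85 of 494 cases. Counts that were 0 and stayed 0 are among the cases that did not move. Depth limits the 8 untested members, whose largest count was 10, and low members such as Slc25a35.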
